A study of Mus musculus with 7 samples.

Results

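The matrix proteases and their inhibitors were followed in epicardial explants from mouse embryo hearts, as a set of 41 named genes of the 22738 rows in each count table. The members were taken by gene name, and all 41 names matched a row. They comprise 13 matrix metalloproteinases (MMPs), 11 ADAMTS proteases, 7 ADAMs, 4 TIMP inhibitors, the membrane-anchored inhibitor gene Reck, the secreted proteases Bmp1 and Htra1, and the plasminogen activator genes Plau, Plaur and Plat. There were 3 Lmnb1-/- libraries, from mice lacking the nuclear lamina protein lamin B1, and 4 wild type (WT) libraries. Every library came from the ventricles of E12.5 hearts on a mixed C57BL/6;129S4Sv/Jae;129S6/SvEvTac background. Hearts stood on gelatin for 48 hours and were then taken off, and the cells that had crawled out grew for 72 hours more without any treatment. The labels do not describe the Lmnb1-/- allele, and they do not say whether a library is 1 embryo or a pool, so the p-values measure only the spread between these libraries, which may be in part technical.

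MMPs are zinc proteases that cleave collagens and other matrix proteins, either after secretion or while anchored in the plasma membrane. ADAMs cut proteins off the cell surface, and the secreted ADAMTS proteases process procollagens or cleave the proteoglycans versican and aggrecan. TIMPs block the active site of MMPs, and TIMP3, which stays bound to the matrix, also inhibits several ADAM and ADAMTS proteases. Urokinase, encoded by Plau, converts plasminogen to plasmin at the surface of migrating cells. Epicardial cells leave the epithelium and invade the heart wall during development, a step in which matrix breakdown is known to take part.

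Total counts per library ran from 1024898 to 3066936. Lmnb1 itself had 4, 2 and 4 counts in Lmnb1-/- libraries, against 463, 185, 488 and 567 in WT libraries. All 10 epicardial markers were detected in quantity enough to be tested, with Wt1 at 54.3 CPM in Lmnb1-/- and 66.7 CPM in WT explants on average. Of the cardiomyocyte markers, Myh7 and Actn2 had 0 counts in all libraries, although Tnnt2 and Myl7 were present. Of the 10 endothelial markers 3 were tested and 0 passed in edgeR's test, with 1 higher at an unadjusted p under 0.05 and 0 called by DESeq2 or limma voom. Cldn5 had 0 counts. Flt1 averaged 38.0 CPM in Lmnb1-/- and 41.5 CPM in WT explants, with overlapping groups. Tek averaged 18.4 CPM in Lmnb1-/- and 26.5 CPM in WT explants, also with overlapping groups. Kdr averaged 8.80 CPM in Lmnb1-/- and 3.29 CPM in WT explants, with groups that did not overlap, as for 13.3% of all tested genes. On the log2 scale, Lmnb1-/- over WT, Flt1 stood at -0.11, Tek at -0.50 and Kdr at 1.40. Reads of Xist and of Y-linked genes showed that WT replicates 1 and 3 were female and that the other 5 libraries, all Lmnb1-/- among them, were male. WT replicate 1 was the lowest of the 4 WT libraries for 20 of the 34 tested members, and WT replicate 2, the shallowest library, was the highest for 15.

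Of the 41 members, 34 passed the count filter and were tested. The other 7 were Mmp3, Mmp9, Mmp10, Mmp13, Mmp15, Timp4 and Adamts16, none with more than 10 counts in any library. After adjustment by Benjamini and Hochberg over all 10775 tested genes, 3 members passed a threshold of 0.05 in the edgeR quasi-likelihood test. Timp3 and Adamts2 fell and Adamts9 rose in Lmnb1-/- explants. Among all tested genes 0.705% passed, 0.362% higher and 0.343% lower. The 34 log2 fold changes, Lmnb1-/- over WT, had a median of -0.23, with 22 below 0, against a median of -0.02 and 52.4% below 0 over all tested genes. Ranges of the groups did not overlap for 7 of the 34, where 13.3% of all tested genes had such ranges. Lmnb1-/- lay above WT in 3 of them (6.36% of all tested genes) and below WT in 4 (6.92%). The count of 3 rested on single libraries, as did the 76 calls over all tested genes. It was 0 without Lmnb1-/- replicate 1, Lmnb1-/- replicate 2, Lmnb1-/- replicate 3 or WT replicate 3, with 5 to 7 members at an unadjusted p under 0.05 in edgeR's test, and in these fits 4, 3, 13 and 4 of all tested genes passed. Among the members Adamts9 alone passed without WT replicate 2 or WT replicate 4, where 40 and 28 of all tested genes did. Without WT replicate 1 there were 5 members, with Mmp19 and Adamts12 added, of 279 genes in all. At an unadjusted p under 0.05 edgeR's test had 9 of the 34 members, 4 higher and 5 lower, where 13.6% of all tested genes had such a p.

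**Figure D1:**
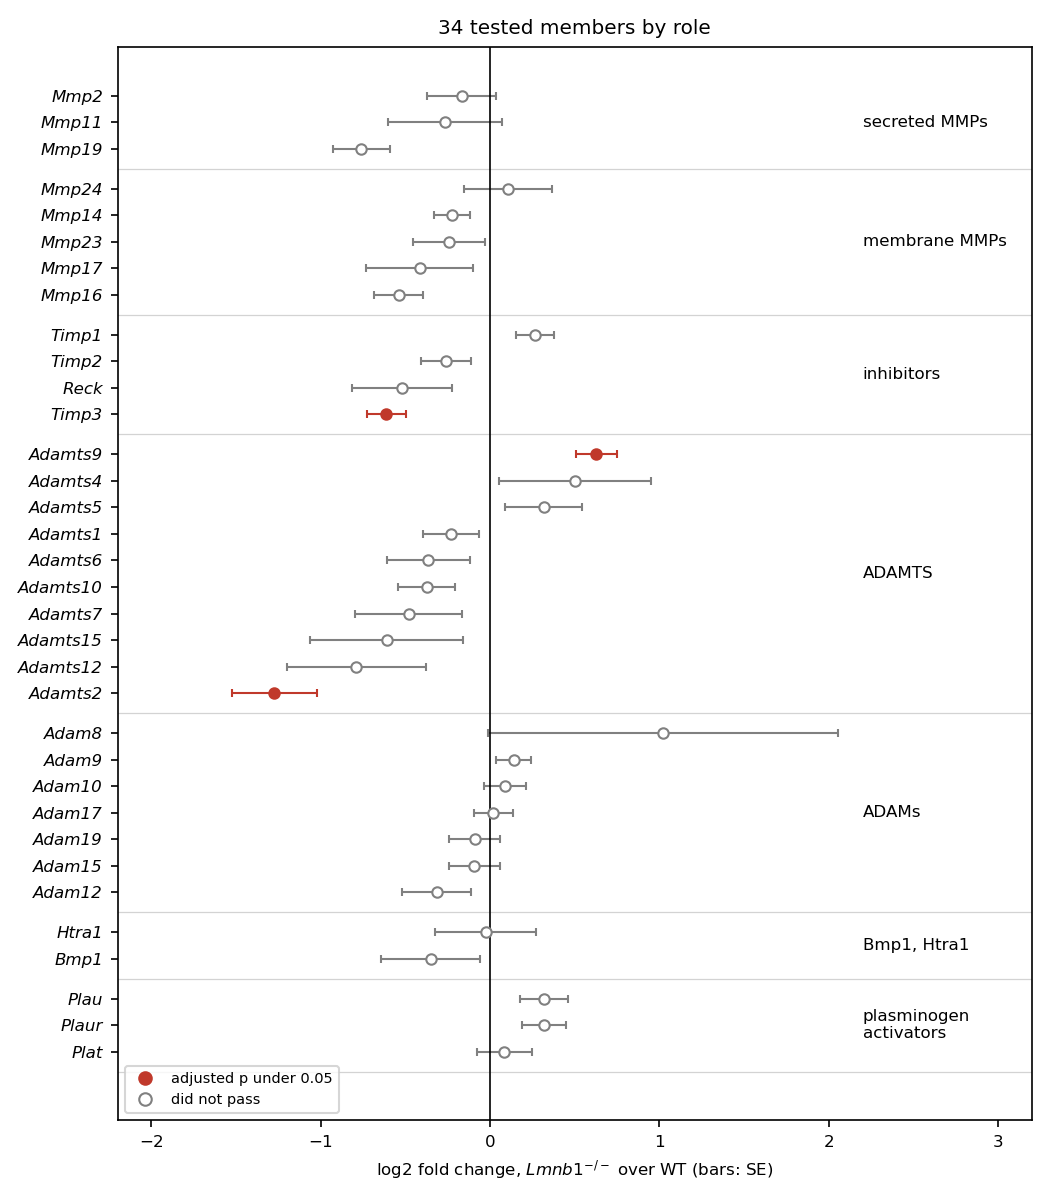
Log2 fold change (x axis, Lmnb1-/- over WT) of the 34 tested members, listed by role down the page, with bars for the SE. Filled red points passed an adjusted p of 0.05 and open grey points did not. Adamts2 at -1.27 and Timp3 at -0.61 lie to the left and Adamts9 at 0.63 to the right, while the ADAMs other than Adam8 and Adam12 sit close to 0.

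The 3 genes that passed are shown with the sequence around their start sites, so that the starts of the 2 genes that fell can be set beside that of the gene that rose. Each runs from 250 bases before the transcription start to 50 after it, 5′ to 3′ on the gene's own strand, from RefSeq on GRCm38.p6. Capitals mark GC boxes (GGGCGG, read on both strands). The windows are chr10:86300162-86300461 on the plus strand for Timp3, chr11:50601835-50602134 on the plus strand for Adamts2 and chr6:92943485-92943784 on the minus strand for Adamts9.
Timp3: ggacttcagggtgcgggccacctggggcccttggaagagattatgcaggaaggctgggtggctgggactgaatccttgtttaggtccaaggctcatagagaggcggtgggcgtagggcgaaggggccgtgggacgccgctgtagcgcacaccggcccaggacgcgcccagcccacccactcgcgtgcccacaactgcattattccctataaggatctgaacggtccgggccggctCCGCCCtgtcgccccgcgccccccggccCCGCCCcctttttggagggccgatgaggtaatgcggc
Adamts2: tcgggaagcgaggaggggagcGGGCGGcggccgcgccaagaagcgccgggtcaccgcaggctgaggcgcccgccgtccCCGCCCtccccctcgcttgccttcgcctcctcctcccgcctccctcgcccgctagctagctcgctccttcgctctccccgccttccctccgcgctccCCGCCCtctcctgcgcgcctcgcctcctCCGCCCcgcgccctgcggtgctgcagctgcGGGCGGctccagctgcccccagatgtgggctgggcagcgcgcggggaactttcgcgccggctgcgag
Adamts9: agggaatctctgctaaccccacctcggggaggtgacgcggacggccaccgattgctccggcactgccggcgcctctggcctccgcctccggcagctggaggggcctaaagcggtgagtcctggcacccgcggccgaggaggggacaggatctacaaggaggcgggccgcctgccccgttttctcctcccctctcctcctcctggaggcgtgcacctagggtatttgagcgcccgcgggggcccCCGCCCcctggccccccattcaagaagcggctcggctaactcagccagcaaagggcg
GC made up 67.0% of the Timp3 window, 77.3% of the Adamts2 window and 70.0% of the Adamts9 window, against a median of 52.7% over all windows. Both the 2 genes that fell and the gene that rose had such GC-rich starts. The table held windows for 24 of the 41 members. A GC box stood in 19 of the 24, and in 38.2% of all 27025 genes with a window. These matches describe letters only.

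Of the 24 windows, 5 held an AP-1 motif (TGANTCA, read on both strands), those of Adam19, Mmp3, Mmp10, Mmp13 and Plaur, where 8.97% of all genes with a window did. AP-1 is the Jun and Fos dimer, a known driver of MMP transcription. A TATA box (TATAAA) stood in 4 of the 24 windows, where 15.7% of all genes with a window had one. In 3 members the window held both the AP-1 motif and a TATA box, a share that was not counted over all genes. These 3, Mmp3, Mmp10 and Mmp13, lie near each other on chromosome 9. The stretch from 100 bases before the start to 20 after it is shown for them because it separates them from the GC-rich starts above. Capitals mark first the AP-1 motif and then the TATA box, on chr9:7445722-7445841, chr9:7502242-7502361 and chr9:7272414-7272533 of GRCm38.p6, plus strand.
Mmp3: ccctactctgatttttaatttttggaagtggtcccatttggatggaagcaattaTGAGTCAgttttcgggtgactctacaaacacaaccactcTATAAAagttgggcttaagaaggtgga
Mmp10: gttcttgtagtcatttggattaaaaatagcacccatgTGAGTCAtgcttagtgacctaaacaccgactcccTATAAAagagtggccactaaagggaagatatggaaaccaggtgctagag
Mmp13: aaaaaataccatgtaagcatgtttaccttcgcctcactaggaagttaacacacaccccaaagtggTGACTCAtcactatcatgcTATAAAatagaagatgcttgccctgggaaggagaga
All 3 were nearly silent in the explants. Mmp3, encoding stromelysin 1, had 0, 5 and 8 counts in Lmnb1-/- libraries and 3, 3, 3 and 9 in WT libraries. Mmp13, encoding collagenase 3, had 0, 1 and 1 counts in Lmnb1-/- and 0, 0, 1 and 0 in WT libraries. Mmp10, encoding stromelysin 2, had 9, 7 and 7 counts in Lmnb1-/- libraries, equal to 2.89, 3.93 and 3.60 CPM. In WT libraries it had 3, 2, 1 and 2 counts, equal to 1.30, 2.07, 0.377 and 0.843 CPM. The Mmp10 groups did not overlap, but the count filter left it out of the test, and it was noticed after its values were seen. Mmp9, encoding gelatinase B, had at most 3 counts in any library.

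Timp3 and Timp1 were the most abundant members per kilobase of transcript in both genotypes, and Timp3 alone among the tested inhibitors passed. Levels are given as CPM, that is, counts over a library total that was corrected by TMM. Timp3 was at 1668, 2058 and 2069 CPM in Lmnb1-/- replicates 1 to 3, and at 2698, 3277, 2846 and 2989 CPM in WT replicates 1 to 4. Every Lmnb1-/- library lay below every WT library. The log2 fold change was -0.61 (SE 0.11), or 0.654-fold (edgeR quasi-likelihood adjusted p = 0.0360). The call held within male libraries (edgeR adjusted p = 0.0296) and in a model that included sex (0.0475), both with a log2 fold change of -0.70. It did not pass without Lmnb1-/- replicate 1, 2 or 3, or without WT replicate 2, 3 or 4, where edgeR's adjusted p ran from 0.0556 to 0.174 and the log2 fold change from -0.66 to -0.52. The kit does not mark strand, and 21.3% of the annotated exon bases of Timp3 overlap an exon of Syn3 on the other strand. Syn3 had 2, 3 and 3 counts in Lmnb1-/- and 1, 1, 1 and 10 in WT libraries, while Timp3 had at least 3172 counts in each.

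Timp1, a secreted inhibitor, was at 357, 399 and 342 CPM in Lmnb1-/- libraries and at 336, 336, 283 and 265 CPM in WT libraries. The groups did not overlap, with Lmnb1-/- above. The log2 fold change of 0.27 (SE 0.11, 95% interval 0.02 to 0.51) did not pass in edgeR's test (adjusted p = 0.325). Timp2, whose protein helps MT1-MMP to activate pro-MMP2, ran from 676 to 804 CPM in Lmnb1-/- and from 665 to 1094 CPM in WT libraries, with a log2 fold change of -0.26. Reck ran from 8.68 to 13.5 CPM in Lmnb1-/- and from 10.9 to 24.8 CPM in WT libraries. Timp4 had 1 count in Lmnb1-/- replicate 1 and 0 elsewhere. Of the 4 tested inhibitors 1 fell and 0 rose, and at an unadjusted p under 0.05 in the same edgeR test 1 was lower and 1 higher. DESeq2 and limma voom likewise called Timp3 alone.

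Levels can be set side by side between genes only per length, and CPM was therefore divided by the longest RefSeq-linked transcript in kilobases. On this scale Timp3 led all members in WT explants at 625 ± 52.3 CPM per kb (SD, n = 4), followed by Timp1 at 345 ± 41.3. In Lmnb1-/- explants Timp1 stood at 415 ± 33.8 and Timp3 at 409 ± 48.5 CPM per kb (SD, n = 3), a difference within their spread. Timp3 made up 37.6, 39.4 and 42.4% of the summed TIMP level per kb in Lmnb1-/- libraries, and 50.5, 50.7, 50.7 and 54.3% in WT libraries. The share of Timp1 was 43.0, 40.9 and 37.4% in Lmnb1-/- libraries and 25.7 to 33.7% in the 4 WT libraries. Neither share overlapped between the groups, but shares of a sum are tied, and a lower Timp3 level alone raises the share of Timp1. The summed TIMP level was 1026 ± 82.7 CPM per kb in Lmnb1-/- (SD, n = 3) and 1214 ± 106 in WT explants (SD, n = 4). The ratio of the summed MMP level to the summed TIMP level was 0.480, 0.461 and 0.466 in Lmnb1-/- libraries and 0.424, 0.449, 0.450 and 0.523 in WT libraries, so the groups overlapped. These sums and shares depend on transcript lengths from an annotation of GRCm38, while the counts were made on mm9, and they were not tested.

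**Figure D2:**
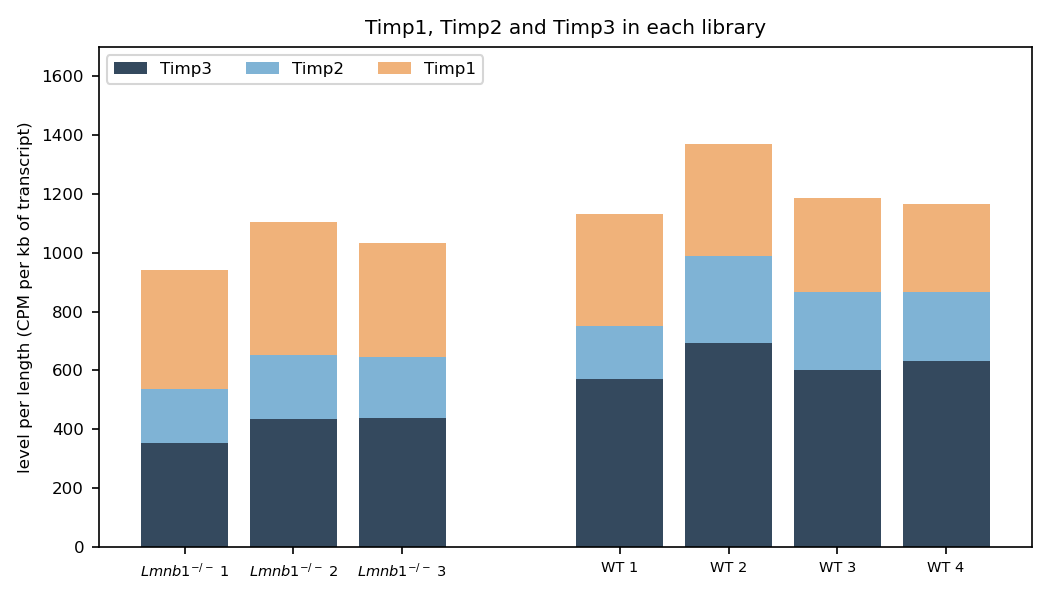
Stacked bars give the levels of Timp3 (bottom), Timp2 (middle) and Timp1 (top) in each library, in CPM per kb of transcript, with the 3 Lmnb1-/- libraries on the left and the 4 WT libraries on the right. The Timp3 part is 353 to 438 CPM per kb in Lmnb1-/- and 571 to 694 CPM per kb in WT libraries, and the Timp1 part is slightly taller in Lmnb1-/- libraries.

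Among the ADAMTS genes, 1 of 10 tested rose and 1 fell. Adamts9, encoding a protease that cleaves versican, was at 240, 271 and 244 CPM in Lmnb1-/- libraries and at 137, 181, 152 and 185 CPM in WT libraries. All Lmnb1-/- libraries lay above all WT libraries. The log2 fold change was 0.63 (SE 0.12), or 1.54-fold (edgeR quasi-likelihood adjusted p = 0.0371). The 2 male WT libraries, replicates 2 and 4, were the higher ones. The call was lost within male libraries (edgeR adjusted p = 0.101) and in a model that included sex (0.141), both with a log2 fold change of 0.46. It also did not pass without WT replicate 3 (adjusted p = 0.113) or without Lmnb1-/- replicate 1, 2 or 3 (adjusted p = 0.133, 0.207 and 0.101). A730049H05Rik and Gm15737 overlap its annotated exons on the other strand, and the larger of these overlaps covers 9.18% of the exon bases. Neither name matched a gene row, so reads from these genes were not counted apart and their levels are not known.

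Adamts2 encodes the main procollagen I N-proteinase, which trims the amino end of fibrillar procollagens. It was at 9.33, 15.1 and 12.3 CPM in Lmnb1-/- libraries and at 20.4, 27.9, 31.3 and 36.3 CPM in WT libraries. The raw counts behind these levels were 29, 27 and 24 in Lmnb1-/- and 47, 27, 83 and 86 in WT libraries. All Lmnb1-/- levels lay below all WT levels. The log2 fold change was -1.27 (SE 0.25), or 0.413-fold (edgeR quasi-likelihood adjusted p = 0.0395). Within male libraries it was -1.44 and passed (edgeR adjusted p = 0.0373), and in a model that included sex it was -1.45 and did not pass (0.0706). Without Lmnb1-/- replicates 1, 2 and 3 or WT replicates 2, 3 and 4, one at a time, it did not pass (adjusted p = 0.0556 to 0.191), with log2 fold changes from -1.44 to -1.08. The 2 other N-proteinases of this subfamily, Adamts3 and Adamts14, stood at -1.20 and -0.45 on the log2 scale, and neither passed (edgeR adjusted p = 0.238 and 0.459). Adamts14 was named after its values were seen.

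Of the other proteoglycan-cleaving members, Adamts1 was at 287, 348 and 299 CPM in Lmnb1-/- libraries and at 292, 285, 416 and 458 CPM in WT libraries. The groups overlapped, with a log2 fold change of -0.23 (SE 0.17, 95% interval -0.60 to 0.14, edgeR adjusted p = 0.590). Adamts5, encoding an aggrecanase, had a log2 fold change of 0.32, and Adamts15 had -0.61. Adamts4, encoding another aggrecanase, had only 3 to 16 counts per library and did not pass. Adamts12, also named after its values were seen, was at 122, 177 and 155 CPM in Lmnb1-/- libraries. In WT replicates 1 to 4 it was at 108, 317, 304 and 318 CPM. WT replicate 1 thus lay below all Lmnb1-/- libraries, and the other WT libraries lay far above them. Its log2 fold change of -0.79 (SE 0.41, edgeR adjusted p = 0.467) became a call without WT replicate 1. Within male libraries, which also leave out WT replicate 1, it was -1.08 and passed (edgeR adjusted p = 0.0103). In a model that included sex it was again -1.08 and did not pass (0.357). Adamts6, Adamts7 and Adamts10 had log2 fold changes of -0.36, -0.48 and -0.38, and none passed.

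**Figure D3:**
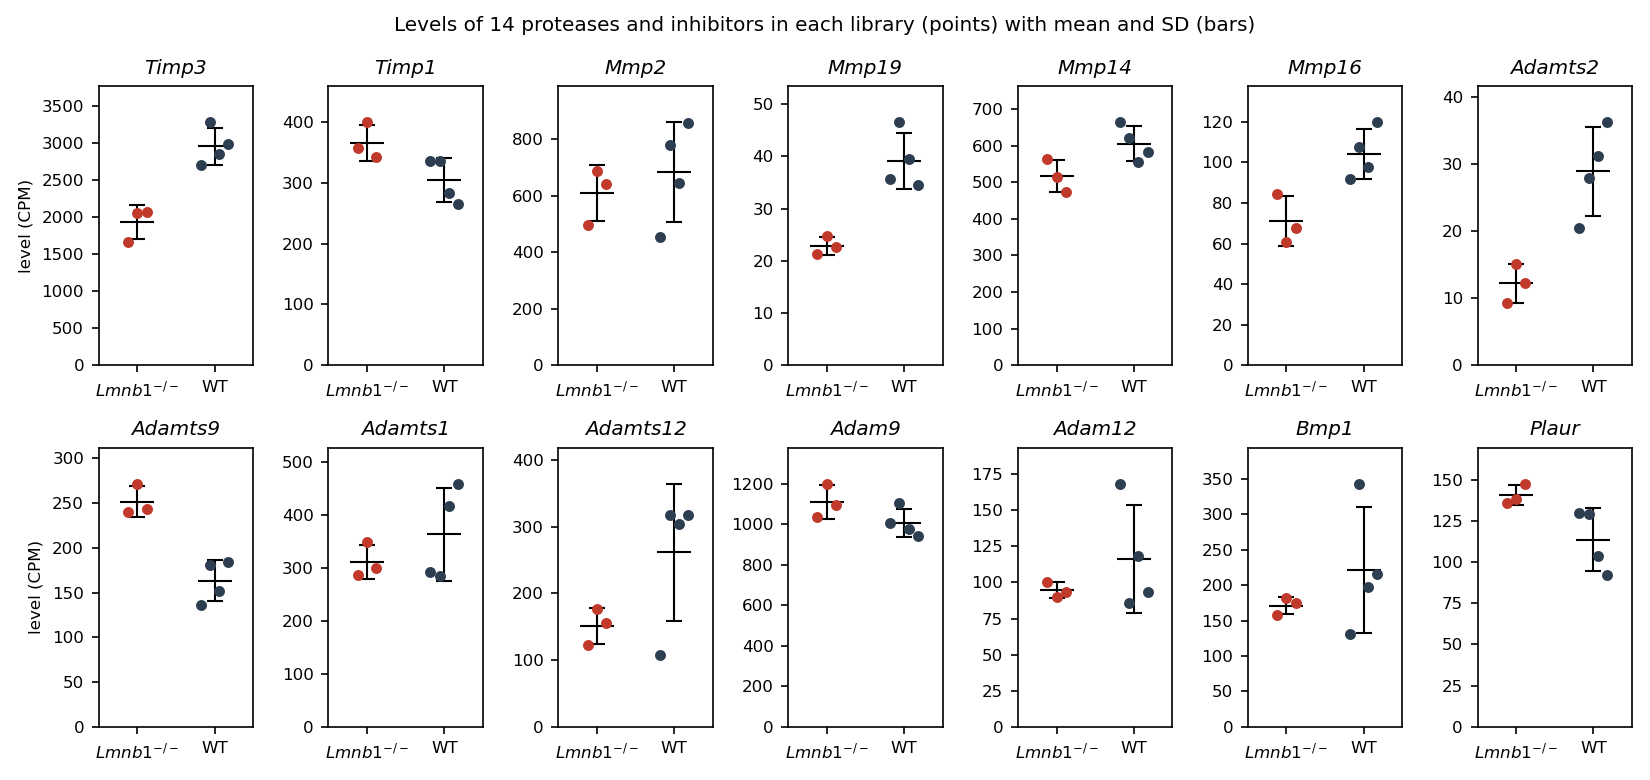
Level in CPM (y axis, from 0) of 14 members in each library, with Lmnb1-/- libraries in red on the left and WT libraries in dark blue on the right of each panel, and black bars for the mean and SD. Timp3, Mmp19, Mmp16, Adamts2, Adamts9, Timp1 and Plaur have groups that do not overlap, and the lone low WT point of Adamts12 is replicate 1.

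The MMPs themselves showed no call. Of 3 tested secreted MMPs and 5 tested membrane-type MMPs, 0 passed in edgeR's test, and 0 by DESeq2 or limma voom. At an unadjusted p under 0.05, 1 of each group was lower, Mmp19 and Mmp16. Mmp19, a secreted MMP that cleaves basement membrane proteins, was at 21.2, 24.7 and 22.6 CPM in Lmnb1-/- libraries and at 35.7, 46.5, 39.5 and 34.6 CPM in WT libraries. The groups did not overlap. The log2 fold change was -0.76 (SE 0.17, 95% interval -1.12 to -0.40) and the adjusted p was 0.0630. It passed without WT replicate 1 (0.0370) and with no count filter (0.0330). Gm47093 and Tmem198b overlap its annotated exons on the other strand, and the larger of these overlaps covers 22.3% of the exon bases. Here too neither name matched a gene row, so the part of their reads in the Mmp19 counts is not known.

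Mmp16, encoding the membrane-anchored MT3-MMP, was at 84.6, 60.6 and 67.8 CPM in Lmnb1-/- libraries and at 91.8, 107, 97.9 and 120 CPM in WT libraries. The groups did not overlap, but the log2 fold change of -0.54 (SE 0.14) did not pass (edgeR adjusted p = 0.113). The abundant pair of this system is Mmp2, or gelatinase A, and Mmp14, which encodes its activator MT1-MMP. Together they made up 82.6 ± 1.30% of the summed MMP level per kb in Lmnb1-/- explants (SD, n = 3) and 81.5 ± 2.25% in WT explants (SD, n = 4). Mmp2 was at 498, 687 and 642 CPM in Lmnb1-/- libraries and at 455, 779, 646 and 856 CPM in WT libraries. Mmp14 was at 563, 514 and 474 CPM in Lmnb1-/- libraries and at 663, 622, 554 and 582 CPM in WT libraries. The groups overlapped for both. The log2 fold changes were -0.17 for Mmp2 (SE 0.20, 95% interval -0.63 to 0.29) and -0.23 for Mmp14 (SE 0.11, 95% interval -0.45 to 0.00), with edgeR adjusted p of 0.766 and 0.374. Mmp2 was at -0.32 without WT replicate 1, -0.03 without WT replicate 4 and -0.43 within male libraries, and passed in none of these. Mmp11, Mmp17, Mmp23 and Mmp24 had log2 fold changes from -0.42 to 0.11. For Mmp24, with 15 to 45 counts per library, 13.6% of the exon bases overlap BC029722 on the other strand. BC029722 had 24 to 73 counts per library, and the part of its reads in the Mmp24 counts was not tested.

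Log2 fold changes of the ADAM sheddases ran from -0.32 to 1.02 around a median of 0.02. Of 7 tested, 0 passed in edgeR's test, 0 had an unadjusted p under 0.05, and DESeq2 and limma voom called 0. Adam9, a widely expressed ADAM and the third of all members per length in both genotypes, was at 1034, 1200 and 1097 CPM in Lmnb1-/- libraries and at 1007, 1107, 976 and 944 CPM in WT libraries. Its log2 fold change was 0.14 (SE 0.10, 95% interval -0.08 to 0.36, edgeR adjusted p = 0.590). The main sheddases of Notch and of TNF, Adam10 and Adam17, had log2 fold changes of 0.09 (95% interval -0.18 to 0.36) and 0.02 (95% interval -0.22 to 0.26). In a model that included sex they stood at -0.0117 and -0.00186. Adam12 was at 101, 89.7 and 93.5 CPM in Lmnb1-/- libraries and at 168, 85.8, 119 and 93.2 CPM in WT libraries. The groups overlapped, and its log2 fold change was -0.32 (SE 0.20, edgeR adjusted p = 0.533). Adam15 and Adam19 both stood at -0.09.

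Adam8, an ADAM known from leukocytes, varied more than any other ADAM. It was at 2.89, 17.4 and 51.4 CPM in Lmnb1-/- libraries and at 10.9, 4.13, 4.90 and 22.8 CPM in WT libraries. The groups overlapped, with a log2 fold change of 1.02, an SE of 1.03 and an edgeR adjusted p of 0.721. It stood at -0.07 with neighbouring library numbers as a block. The summed level of 14 macrophage and leukocyte markers was 42.1, 286 and 660 CPM in Lmnb1-/- libraries and 137, 80.6, 91.9 and 359 CPM in WT libraries. The 7 libraries stood in the same order for Adam8 and for this sum. All 14 markers had a count in at least some libraries, and of the 10 tested 9 had log2 fold changes above 0. None passed in edgeR's test, 0 had an unadjusted p under 0.05, and DESeq2 and limma voom called 0. In whole explants more leukocytes and more RNA per leukocyte cannot be told apart. The part of these cells in the Adam8 level was not tested.

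**Figure D4:**
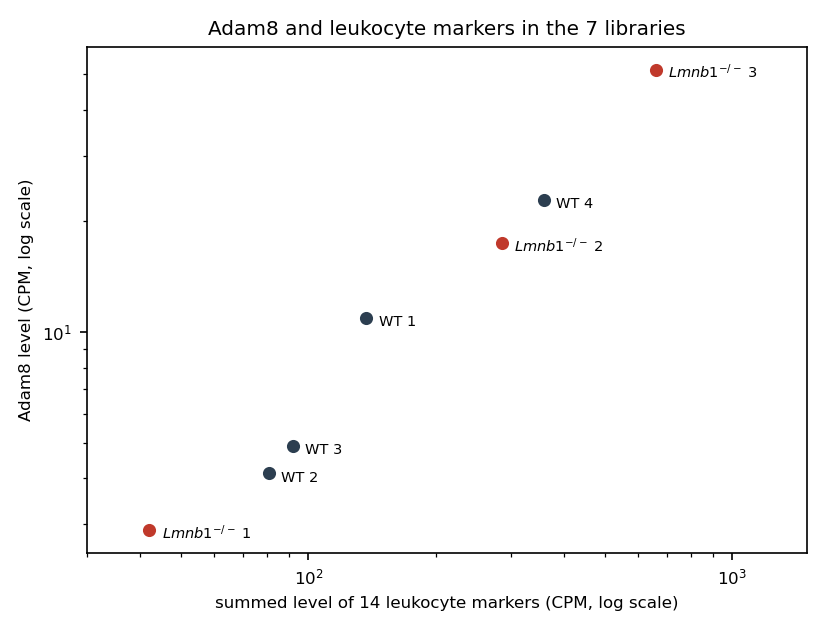
Each point is a library, with the summed level of 14 leukocyte markers on the x axis and Adam8 on the y axis, both in CPM on log scales, Lmnb1-/- in red and WT in dark blue. The points follow one order from Lmnb1-/- replicate 1, at 42.1 and 2.89 CPM, to Lmnb1-/- replicate 3, at 660 and 51.4 CPM, with WT libraries in between.

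Bmp1, encoding the procollagen C-proteinase, was at 158, 182 and 174 CPM in Lmnb1-/- libraries and at 131, 343, 197 and 216 CPM in WT libraries. Htra1, encoding a secreted serine protease, was at 342, 553 and 453 CPM in Lmnb1-/- libraries and at 259, 561, 564 and 446 CPM in WT libraries. The groups overlapped for both genes. Their log2 fold changes were -0.35 (SE 0.29, 95% interval -1.04 to 0.34) and -0.03 (SE 0.30, 95% interval -0.73 to 0.68), with edgeR adjusted p of 0.651 and 0.986. Bmp1 was at -0.08 without WT replicate 2, -0.54 without WT replicate 1, -0.69 in a model that included sex and -0.05 with neighbouring library numbers as a block. The sign for Htra1 turned to 0.03 with library totals in place of TMM.

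The 3 plasminogen activator genes had log2 fold changes above 0, and 0 of them passed in edgeR's test. Plaur, encoding the urokinase receptor, was at 136, 139 and 147 CPM in Lmnb1-/- libraries and at 130, 129, 104 and 91.9 CPM in WT libraries. The groups did not overlap, and the log2 fold change was 0.32 (SE 0.13, adjusted p = 0.313). Plau, encoding its ligand urokinase, had an equal log2 fold change of 0.32 (adjusted p = 0.348), with 113, 124 and 133 CPM in Lmnb1-/- libraries and 113, 83.7, 81.0 and 114 CPM in WT libraries. Plau stood at 0.0961 with neighbouring library numbers as a block. Plat, encoding tissue-type activator, stood at 0.08, and its sign turned within male libraries (-0.11) and in a model that included sex (-0.11). At an unadjusted p under 0.05 edgeR's test had Plau and Plaur higher, and DESeq2 and limma voom called 0. Plg, the gene of plasminogen itself, had 0 counts in every library, where 3 counts would have been 0.965 to 3.10 CPM. It was named after its values were seen.

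The wider protease system was examined through 101 further genes in 6 lists, of which 61 could be tested. In edgeR's test 1 of the 61 rose and 0 fell, where 0.705% of all tested genes passed in either direction. At an unadjusted p under 0.05, which 13.6% of all tested genes had, there were 3 higher and 15 lower, and DESeq2 and limma voom called 0. The gene that rose was Tfpi2, which encodes a secreted inhibitor of plasmin and other serine proteases. It was at 23.2, 8.97 and 17.5 CPM in Lmnb1-/- libraries and at 6.09, 4.13, 3.77 and 5.06 CPM in WT libraries. The groups did not overlap, and the log2 fold change was 1.80 (SE 0.34, edgeR adjusted p = 0.0360). Of the 7 fits that left out a single library, Tfpi2 passed in that without WT replicate 1 and in no other. It also did not pass within male libraries, with sex as a term, or with neighbouring library numbers as a block. In the same list, Lrp1, the receptor that clears proteases and inhibitors from the cell surface, was at 215, 205 and 268 CPM in Lmnb1-/- libraries and at 307, 910, 282 and 293 CPM in WT libraries, with WT replicate 2 far above the rest and a log2 fold change of -0.94. Spint1, an inhibitor of membrane serine proteases, had a log2 fold change of -0.59, and neither gene passed (edgeR adjusted p = 0.500 and 0.265).

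Of 28 further MMP, ADAM, ADAMTS, tolloid and HtrA genes only 7 were tested, and Adam23, Adamts3 and Adam22 had the smallest p, with log2 fold changes of -1.09, -1.20 and -0.68. Among adaptors and ADAMTS-like genes these were Tspan5 at -0.51, Pcolce, the enhancer of procollagen C-proteinase, at -0.37 and Adamtsl2 at -1.69. The proprotein convertases Pcsk5 and Furin, which remove the prodomains of many members, and Pcsk7 had log2 fold changes of 0.19, 0.18 and -0.04. Of the cathepsins and surface proteases, the lysosomal Ctsl had 0.41, Ece1 had -0.39 and Ctsk had -1.45. None of these passed in edgeR's test (adjusted p = 0.152 to 0.939). Among 17 tested substrates the median log2 fold change was -0.46, with 13 negative values, and 0 passed, with 6 lower at an unadjusted p under 0.05 and 0 called by DESeq2 or limma voom. Fbn1, Col4a1 and Acan, encoding fibrillin 1, a basement membrane collagen and aggrecan, had log2 fold changes of -0.49, -0.46 and -3.63. Acan (SE 1.16) was at 0.643, 6.17 and 1.03 CPM in Lmnb1-/- libraries and at 23.1, 5.17, 64.8 and 14.3 CPM in WT libraries. Its groups overlapped, and WT replicate 3 was far above the rest.

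Smooth muscle and pericyte markers had the same direction between genotypes as the 2 members that fell. All 11 tested markers of this list had log2 fold changes below 0, where 52.4% of all tested genes did. In edgeR's test 5 fell, Acta2, Des, Actg2, Cspg4 and Pdgfrb, where 0.343% of all tested genes fell. The summed level of all 12 markers of this list was 8674, 9460 and 8708 CPM in Lmnb1-/- libraries and 11313, 12663, 12898 and 12933 CPM in WT libraries. The groups did not overlap. Epicardial markers were below 0 for 9 of 10, with sums of 1966, 2373 and 2283 CPM in Lmnb1-/- libraries and 2519, 3272, 2571 and 2990 CPM in WT libraries, and 0 passed in edgeR's test, with 3 lower at an unadjusted p under 0.05, 2 lower in DESeq2 and 0 in limma voom. The part of these cells in the levels of Timp3 and Adamts2 was not tested.

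**Figure D5:**
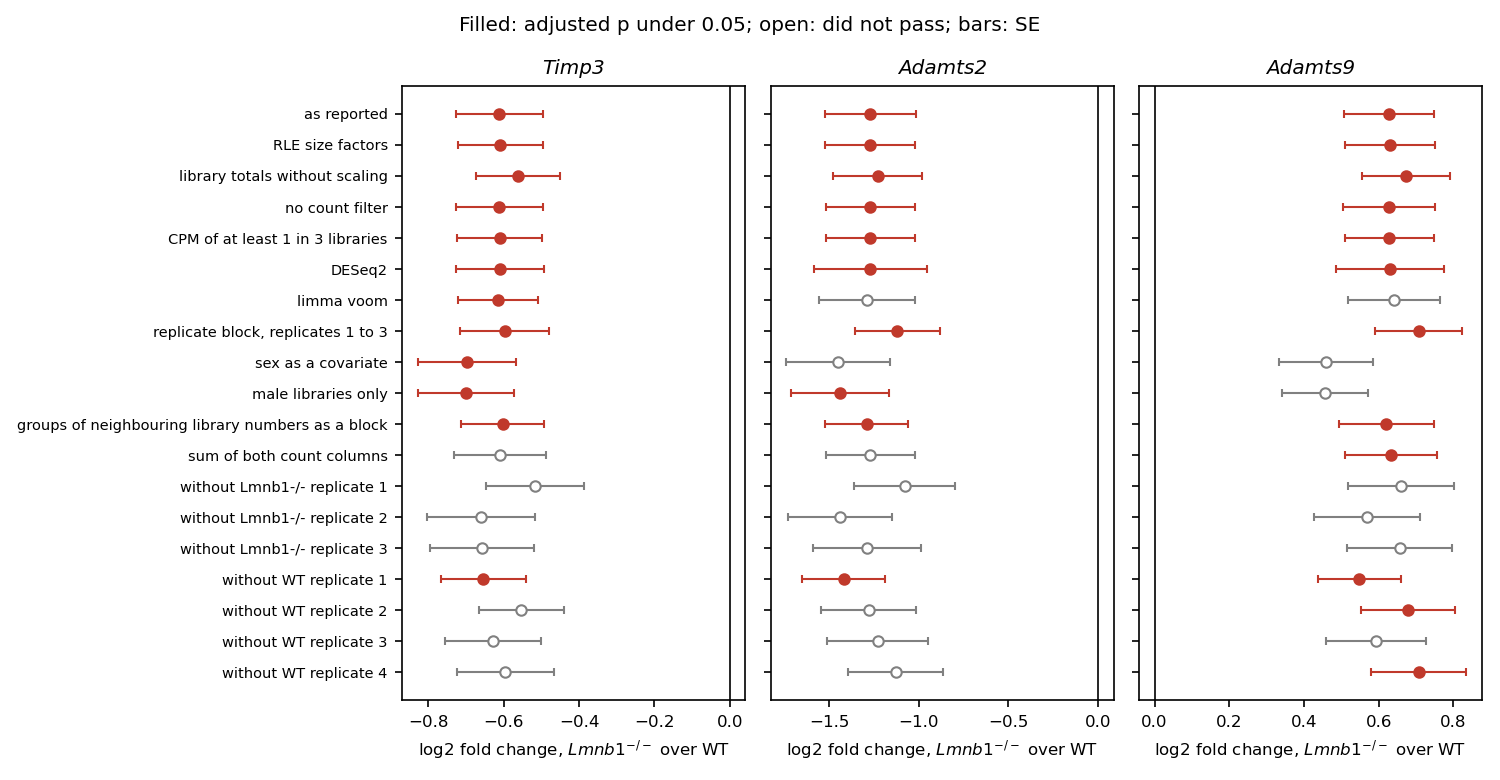
Log2 fold change (x axis, Lmnb1-/- over WT, bars for the SE) of Timp3, Adamts2 and Adamts9 under each analysis setting (y axis, as reported at the top). Filled red points passed an adjusted p of 0.05 and open grey points did not. The direction held in all 18 alternatives for the 3 genes, while 11 of the 18 kept the call of Timp3, 9 that of Adamts2 and 11 that of Adamts9.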

How the data were processed

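RNA was measured by sequencing 3 Lmnb1-/- and 4 WT explant libraries, prepared with the TruSeq RNA v2 kit, per the labels' protocols. TopHat, edgeR and mm9 appear in the submitters' processing notes, and the counting program and annotation are not given in the sources used here. The authors deposited 1 table per library with 22738 gene rows and 2 unnamed columns of whole-number counts, with no normalization recorded per the file headers. The first column was used. The second held 16.6 to 19.6% of both columns' counts and entered 1 alternative only.

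Genes were filtered with filterByExpr, scaled by TMM and tested by the quasi-likelihood method of edgeR 4.0.16 in R 4.3.3, with robust fitting. P-values were adjusted by Benjamini and Hochberg over all tested genes. Alternatives included DESeq2 1.42.0 and limma voom (limma 3.58.1), other scalings and filters, replicate, sex and library-number terms, male libraries alone and leaving out each library. Library numbers were read from the names of the deposited data, and a gap over 2 started a new group. Lmnb1-/- replicate 1 and WT replicate 1 formed a group, as did WT replicates 2 and 3. Lmnb1-/- replicates 2 and 3 and WT replicate 4 formed the last. With these groups as a block the genotype difference rests on the first and last groups. Log2 fold changes are Lmnb1-/- over WT, their SE is the fold change over the square root of F, and 95% intervals use the test's degrees of freedom. Replicate pairs differed beyond counting noise, with a chi-square per degree of freedom of 2.26 to 7.88 within groups. The procedure was also run on simulated counts with set fold changes. These held no differences by sex or library number, so the run does not cover such differences.

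The members and lists were chosen with earlier results of these data known. Members given in full are those called, those tested whose group ranges do not overlap, and the member of smallest p and of highest level in each role group. From each further list up to 3 genes of smallest p are named. Promoter sequences are RefSeq's on GRCm38.p6. Transcript lengths and overlaps come from GENCODE M21 on GRCm38.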

Additional observations from a re-analysis of the deposited data

Results flagged for a closer look

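Adamts12 was flagged because 1 WT library stood far from the other 3. WT replicate 1 was at 108 CPM, where WT replicates 2 to 4 were at 317, 304 and 318 CPM, and the gap made up 0.937 of the range of the group. The summed level of the 11 ADAMTS members, of which Adamts12 is one, was flagged for the same library. It was 806 CPM in WT replicate 1, against 1314, 1343 and 1417 CPM in WT replicates 2 to 4. In all 41 sets of WT values were examined in this way, of which chance flags about 1 in 20, and the group of 3 Lmnb1-/- libraries was not examined.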

How the results depend on the processing

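The median log2 fold change of the members stayed below 0 in all 18 alternatives, from -0.27 to -0.06. Its largest change, from -0.228 to -0.0641 with groups of neighbouring library numbers as a block, about equalled the spread between libraries (SD 0.164). The number of members called, 3 as reported, was 1 with limma voom (Timp3), 1 with sex as a covariate (Timp3) and 1 with the sum of both count columns (Adamts9), and ran from 0 to 5 on leaving out single libraries. It was 3 within male libraries, where Adamts12 passed in place of Adamts9, and 3 or 4 in the other alternatives. The number of further pathway genes called, 1 as reported, was 0 with DESeq2, limma voom or sex as a covariate (20, 19 and 19 at an unadjusted p under 0.05), 2 with the replicate block, 5 within male libraries and 2 with groups of neighbouring library numbers as a block, neither of these last holding Tfpi2, and 0 to 5 on leaving out single libraries. Adamts2 did not pass with limma voom (-1.29), sex as a covariate (-1.45) or the sum of both columns (-1.27, adjusted p = 0.0502), and ran from -1.44 to -1.08 without single libraries. Timp3 also missed the threshold with the sum of both columns (adjusted p = 0.0506), and Adamts9 with limma voom (0.0505). The sign of Htra1, never called, turned with library totals (0.0288), limma voom (0.0156), the replicate block (0.0269), number groups (0.27) and without single libraries (-0.22 to 0.14), and that of Adam12 with sex as a covariate (0.0762) and within male libraries (0.0744). The cause of these changes was not tested. Same-numbered replicates 1 to 3 had correlations of mixed sign, 0.264, -0.158 and -0.0898. The replicate block, which leaves out WT replicate 4, called the same 3 members and 96 of all tested genes. Without WT replicate 4 and without a block, Adamts9 alone of the members passed, with 28 of all tested genes. Whether the replicate numbers pair the libraries is not settled by these values. Pairs of Lmnb1-/- and WT libraries with neighbouring library numbers had correlations of 0.264, 0.193 and 0.332, and with those groups as a block the median of the members was -0.06. The count filter left out 7 members, with 10 counts or fewer per library, while 38 members were tested with a filter on CPM and 41 with none.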
